A study of Homo sapiens with 6 samples.

Results

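The cytosolic ribosomal protein genes encode the protein parts of the ribosome of the cytosol. They were taken as every symbol that reads RPL or RPS and a number, with an A, X or L ending where there is one, together with RPL22L1, RPL7L1, RPL36AL, RPLP0, RPLP1, RPLP2 and RPSA. S6 kinases, Y-linked RPS4 copies, pseudogenes and antisense genes were left out. This gave 84 of 24462 symbols, 32 of the small subunit and 52 of the large, and all 84 passed the filter on low counts. The rule used no measured value. For 7 members (RPL3L, RPL10L, RPL22L1, RPL36AL, RPL39L, RPL7L1 and RPS27L) the symbol itself marks a like copy of another member.

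The RNA came from 6 libraries of a triple-negative breast cancer line, MDA-MB-231 from ATCC, in 3 groups of 2. Control cells carried a control retrovirus. The other cells carried a retroviral shRNA for a stable knockdown of ELK3, an ETS-family transcription factor, and had received 1 µg of the plasmid pLenti-cMyc-DDK (vector-labelled libraries) or pLenti-cMyc-DDK-ELK3 (ELK3-labelled libraries) 48 h before collection. No transfection is recorded for the controls, so a difference from them cannot be told apart from the effect of transfection. Nothing says that the 2 libraries of a group came from separate cultures, so the p-values measure only the spread between these libraries, which may be technical.

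A ribosome holds 1 copy of nearly all of its proteins, and the cell makes them in step with the ribosomal RNA. Their messages are short, abundant and mostly begin with a C and a run of pyrimidines, the 5′ terminal oligopyrimidine (TOP) motif, through which mTORC1 and the binding protein LARP1 control their translation. The proteins are assembled onto ribosomal RNA in the nucleolus by a large set of assembly factors. Cells that grow fast, tumour lines among them, commonly make more of them.

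The first bases of the messages are the feature that most members shared and that the rule did not use. RefSeq's promoter table (GRCh38.p14) held a sequence for 67 of the 84 members. A TOP-like start, meaning a C followed by at least 4 pyrimidines within 5 bases of the annotated start, was found in 52 of the 67 (77.6%), against 21.1% of all 27305 promoters in the table. Over the 15843 promoters of protein-coding genes the share was 22.1%. With the C exactly at the annotated start it was 64.2% in members (43 of 67), 4.04% in all promoters and 4.6% in those of protein-coding genes. The windows below run from 10 bases before the start to 20 after it, with the TOP-like run in capitals. The first lines show members of paralogue pairs whose balance differed between the groups, RPL39 without its partner RPL39L, for which no sequence was given. The next show members of large change or of the stalk, and the last show some of the 15 members without such a run.
RPL22 (chr1:6199576-6199605, minus strand): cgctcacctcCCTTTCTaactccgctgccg
RPL22L1 (chr3:170870176-170870205, minus strand): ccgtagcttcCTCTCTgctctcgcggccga
RPL36A (chrX:101391001-101391030, plus strand): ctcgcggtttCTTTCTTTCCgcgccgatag
RPL36AL (chr14:49620607-49620636, minus strand): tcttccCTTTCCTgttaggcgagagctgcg
RPL39 (chrX:119791611-119791640, minus strand): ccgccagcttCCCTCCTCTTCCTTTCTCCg
RPL35 (chr9:124861938-124861967, minus strand): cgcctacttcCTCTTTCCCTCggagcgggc
RPS21 (chr20:62387093-62387122, plus strand): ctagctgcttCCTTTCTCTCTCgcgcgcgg
RPLP0 (chr12:120201092-120201121, minus strand): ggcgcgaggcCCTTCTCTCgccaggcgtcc
RPS9 (chr19:54200848-54200877, plus strand): gcttccgcgcCTCTTTCTCagtgaccgggt
RPS24 (chr10:78033853-78033882, plus strand): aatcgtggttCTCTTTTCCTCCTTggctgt
RPS4X (chrX:72277229-72277258, minus strand): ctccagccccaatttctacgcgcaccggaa
RPL10 (chrX:154398055-154398084, plus strand): ccactctcagaaatatacgtctgtcacagt
RPS27L (chr15:63157458-63157487, minus strand): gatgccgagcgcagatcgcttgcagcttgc
RPL7L1 (chr6:42879606-42879635, plus strand): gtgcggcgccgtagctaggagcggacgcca
Both RPL22 and RPL22L1 begin with a TOP-like run, and so do both RPL36A and RPL36AL, although the run of RPL36AL starts 4 bases before the annotated start. A TOP-like start was found neither in RPS4X nor in RPL10, RPS27L or RPL7L1.

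ELK3 binds DNA as an ETS factor, and CCGGAAG is a core that ETS factors recognise. On either strand (as CCGGAAG or CTTCCGG) it stood within 250 bases before and 50 after the start in 23 of the 67 member promoters (34.3%). The share was 10.7% over all promoters in the table and 14.2% over the 15843 of protein-coding genes. Each window shown has the match in capitals and belongs to a member whose values are given further on.
RPS4X (chrX:72277216-72277245, minus strand): ttctacgcgcaCCGGAAGacggaggtcctc
RPS21 (chr20:62386958-62386987, plus strand): gaacctccttgCCGGAAGcggaagtgcgtc
RPL11 (chr1:23691779-23691808, plus strand): aaggccctcggCCGGAAGctccgctttctc
RPS27L (chr15:63157478-63157507, minus strand): cagcttctatcCCGGAAGttgatgccgagc
RPL7L1 (chr6:42879589-42879618, plus strand): gcacagccgcgCCGGAAGtgcggcgccgta
A match is a description of these letters and not a binding site. The median log2 fold change between vector-labelled and control libraries was -0.05 for the 23 members with it and -0.03 for the 44 without, and RPS4X and RPS21, both with it, differed from the controls in opposite directions. For the TOP-like start the medians were -0.08 for the 52 with it and 0.05 for the 15 without.

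The target of the knockdown went against the labels. Counts of ELK3 ran at 615 and 576 in the 2 control, at 5166 and 3484 in the 2 vector-labelled and at 128 and 213 in the 2 ELK3-labelled libraries. In CPM, counts brought to a common library size with TMM factors, these are 126 ± 3.36, 728 ± 43.6 and 21.5 ± 1.62 (SD, n = 2). ELK3 was thus highest in the libraries labelled as given the empty plasmid, and the deposited column headers name these 2 groups the other way round from the sample labels. The groups are therefore called by their labels throughout, and no direction is tied to ELK3.

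Libraries held 4884483 to 9131214 counts, which limits the precision for the rarest members such as RPL3L. The summed level of 8 genes typical of MDA-MB-231 (VIM, CD44 and AXL among them, all detected in every library) was 5154 to 5321 CPM in the controls, 845 to 863 in vector-labelled and 763 to 804 in the ELK3-labelled libraries. A list of 8 genes typical of HEK293, a kidney-derived line, summed to 142 to 145, 245 to 246 and 528 to 538 CPM, and PAX2 was at 0 in both controls and NEFM in 1 of them. For 12 lymphocyte and NK-cell genes the sums were 265 to 270, 261 to 280 and 198 to 218 CPM. For 10 liver genes they were 10501 to 10833, 10518 to 11297 and 8509 to 8984 CPM, so liver transcripts were present in every library. The part of these transcripts in the results below was not tested, and in bulk RNA fewer cells of a type and less RNA per cell cannot be told apart.

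Ribosomal protein genes held a large part of all counts in each group, and most in the vector-labelled libraries. Their share was 9.41% and 9.56% in the controls, 11.4% and 11.3% in vector-labelled and 9.89% and 10.3% in the ELK3-labelled libraries. The means were 9.48 ± 0.102%, 11.3 ± 0.0352% and 10.1 ± 0.324% (SD, n = 2), and no library of one group overlapped another group. The exact two-sided permutation test over 2 against 2 libraries gave p = 0.333 for each pair, the smallest it can give.

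Most of the gap was in the small subunit. Its genes took 4.39 ± 0.0190% of counts in the controls, 5.59 ± 0.0519% in vector-labelled and 4.904 ± 0.185% in the ELK3-labelled libraries, while the large subunit took 5.10 ± 0.121%, 5.75 ± 0.0872% and 5.21 ± 0.139% (SD, n = 2). Small subunit genes accordingly made up a larger part of the members' counts outside the controls, at 46.8% and 45.8% in control, 48.9% and 49.7% in vector-labelled and 48.3% and 48.7% in ELK3-labelled libraries. This balance does not depend on how libraries are scaled. The 2 control libraries lay below the other 4 (exact permutation p = 0.333 against either group, the smallest possible).

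**Figure D1:**
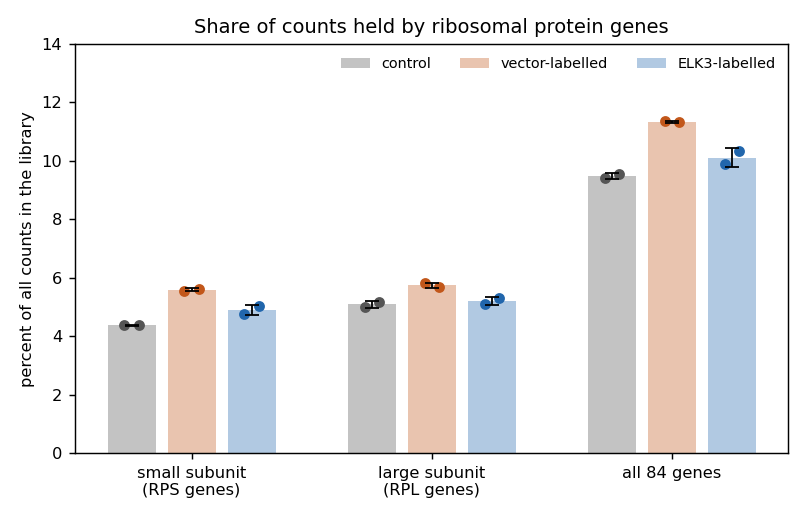
Percent of all counts in a library (y axis) held by the genes of the small subunit, of the large subunit and by all 84 ribosomal protein genes. Points are libraries, bars the mean and error bars the SD of 2 libraries. The vector-labelled libraries stand highest in each set, at 11.3% for all 84 genes against 9.48% in the controls.

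After TMM scaling, the summed level was 101736 ± 2249 CPM in the controls, 110991 ± 538 in vector-labelled and 97089 ± 4754 in the ELK3-labelled libraries (SD, n = 2). The ELK3-labelled libraries thus had a higher share of counts than the controls but a lower summed scaled level, and on the scaled level their libraries overlapped the controls. Of the 9255 CPM between vector-labelled and control libraries RPS4X added 2063, while RPS24 fell by 1091 CPM and RPL35 by 850.

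Between vector-labelled and control libraries, 32 of the 84 members were higher and 24 lower (edgeR's quasi-likelihood test, Benjamini-Hochberg adjusted p under 0.05 over 15386 genes). The background was 37% of all tested genes higher and 35.3% lower, 72.3% in either direction, and the members stood at 38.1% and 28.57%. Among the 2234 genes at a mean of 100 CPM or more, 34.6% were higher and 46.8% lower. The members' share called higher was thus near both backgrounds and their share called lower was below both, and their fold changes were smaller. Their log2 fold changes had a median of 0.04 and quartiles of -0.23 and 0.41, against 0.05, -0.75 and 0.95 over all tested genes and -0.14, -0.72 and 0.43 over those of 100 CPM or more. A change of 2-fold or more was called for 3 members higher and 4 lower, where all genes had 23.7% and 19.4%, and genes of 100 CPM or more 10.4% and 17.9%. With library totals in place of TMM scaling the median of all genes shifted from 0.05 to 0.18, and the members split into 42 higher and 17 lower. With only genes of at least 10 CPM in 2 libraries the split was 39 and 18.

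RPS4X, the X-linked small subunit gene (chrX:72255679-72277300, minus strand, GENCODE 29 annotation of GRCh38), had 1168 and 1256 CPM in the controls, 3201 and 3349 in vector-labelled and 3159 and 3891 in the ELK3-labelled libraries. Both plasmid groups were far above the controls and overlapped each other. It rose 2.7-fold in the vector-labelled libraries (adjusted p = 3.66e-16) and 2.91-fold in the ELK3-labelled libraries (adjusted p = 8.89e-17), both against controls.

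RPS2, a small subunit protein near the messenger entry, stood at 1168 and 1273 CPM in the controls, 2290 and 2258 in vector-labelled and 1948 and 2044 in the ELK3-labelled libraries. The controls were lowest, and RPS2 rose 1.86-fold in the vector-labelled libraries (adjusted p = 3.86e-12). RPS3A, also of the small subunit, went from 415 to 770 CPM, a log2 fold change of 0.89 ± 0.09 (SE, adjusted p = 2.86e-11). RPS9 had 479 and 403 CPM in the controls, 689 and 766 in vector-labelled and 447 and 455 in the ELK3-labelled libraries. Only the vector-labelled libraries stood apart for RPS9, at 1.65-fold above the controls (adjusted p = 4.98e-09), while the other 4 libraries overlapped.

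On the falling side, RPL35 of the large subunit (chr9:124857880-124861981, minus strand), a protein beside the exit tunnel, stood at 1721 and 1677 CPM in the controls, 830 and 869 in vector-labelled and 758 and 829 in the ELK3-labelled libraries. RPS21 of the small subunit (chr20:62387116-62388520, plus strand) stood at 820 and 788 (control), 411 and 419 (vector-labelled) and 396 and 417 CPM (ELK3-labelled). For both genes the control libraries were far above the other 4, and the plasmid groups overlapped for RPS21. RPL35 fell 2-fold (adjusted p = 3.3e-13) and RPS21 1.94-fold (adjusted p = 1.15e-12) in the vector-labelled libraries. RPL12, which binds the base of the stalk, fell from 432 to 266 CPM (log2 fold change -0.70 ± 0.09, adjusted p = 1.38e-08).

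**Figure D2:**
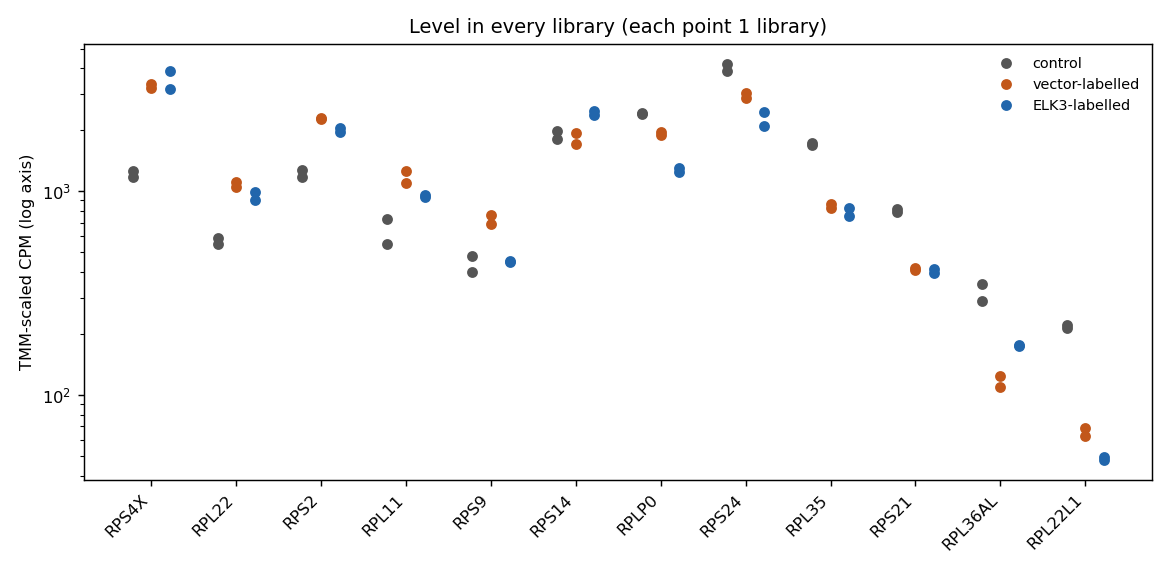
TMM-scaled CPM on a log axis (y axis) of 12 ribosomal protein genes, each point 1 library, coloured by group. RPS4X, RPL22, RPS2 and RPL11 are lowest in the controls, while RPL35, RPS21, RPL36AL and RPL22L1 are highest there, at 1699 CPM for RPL35 against 849 in the vector-labelled libraries.

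Between ELK3-labelled and vector-labelled libraries, both transfected and both labelled as knockdown cells, 9 members were higher and 40 lower, that is 10.71% and 47.62%. The background was 30% of all tested genes higher and 29.6% lower (59.6% in either direction, 58.33% for members), and 37.7% and 34.2% of the genes of 100 CPM or more. The median log2 fold change of the members was -0.18, against -0.02 for all tested genes and 0.02 for genes of 100 CPM or more, and their quartiles were -0.34 and 0.00. The changes were small, since 72 of the 84 members lay within 0.5 of 0, and only RPL3L was called with 2-fold or more, where all genes had 10.4% higher and 12.4% lower. With library totals the split was 10 and 36, and with the 10 CPM filter 5 and 48, so members called lower outnumbered those called higher under each of these settings. Leaving out a library of the plasmid groups kept the median of the members below 0. It was -0.138 without vector-labelled replicate 1 and -0.176 without vector-labelled replicate 2. Without ELK3-labelled replicate 1 it was -0.143, and without ELK3-labelled replicate 2 it was -0.217.

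From the vector-labelled to the ELK3-labelled libraries RPS9 fell 1.61-fold (adjusted p = 2.16e-08), back to the range of the controls. RPS28, a small protein at the messenger exit, had 1830 and 1631 CPM in the controls, 1378 and 1550 in vector-labelled and 906 and 951 in the ELK3-labelled libraries. The ELK3-labelled libraries were lowest, with a fall of 1.58-fold from the vector-labelled libraries (adjusted p = 2.65e-08).

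RPS29, a zinc-binding small subunit protein, had 3885 and 3895 CPM in the controls, 3150 and 3157 in vector-labelled and 2212 and 2333 in the ELK3-labelled libraries. The groups did not overlap, with the controls highest and the ELK3-labelled libraries lowest (adjusted p = 0.000651 for the first step and 2.52e-06 for the second). RPL10, which sits near the site where the subunits join, had 237 and 237 CPM in the controls, 380 and 381 in vector-labelled and 260 and 266 in the ELK3-labelled libraries. It rose 1.61-fold in the vector-labelled libraries (adjusted p = 5.44e-09) and fell 1.45-fold from there to the ELK3-labelled libraries (adjusted p = 7.99e-07).

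The 9 members that rose were RPL39L, RPL36AL, RPS14, RPS27L, RPL37, RPS27, RPL28, RPL4 and RPL6. RPS14, the small subunit gene lost in the 5q- syndrome, had 1968 and 1803 CPM in the controls, 1705 and 1930 in vector-labelled and 2372 and 2471 in the ELK3-labelled libraries. The ELK3-labelled libraries were above the other 4, which overlapped, and RPS14 rose 1.33-fold from the vector-labelled libraries (adjusted p = 4.38e-05). RPL37 rose from 600 to 742 CPM (log2 fold change 0.31 ± 0.08, adjusted p = 0.00104). RPL28, RPL4 and RPL6 rose by log2 fold changes of 0.22, 0.23 and 0.18. The calls of RPL4, RPL6, RPL28 and RPS27 were lost without vector-labelled replicate 2 (log2 fold changes 0.135, 0.180, 0.223 and 0.195). They were also lost without ELK3-labelled replicate 2 (0.195, 0.168, 0.216 and 0.244). With the 10 CPM filter they were lost too (adjusted p = 0.119, 0.161, 0.0713 and 0.0917). The RPL6 call was lost as well with the replicate number as a block (0.0669) and without replicate 1 of either plasmid group. Those of RPL28 and RPS27 were lost without vector-labelled replicate 1 and ELK3-labelled replicate 1, respectively.

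Between ELK3-labelled and control libraries, 22 members were higher and 34 lower, 26.19% and 40.48%, beside a background of 31.8% and 30.8% (62.6% in either direction, 66.67% for members). Genes of 100 CPM or more stood at 32.5% higher and 44.6% lower. This comparison shares a group with each of the other 2. The median log2 fold change was -0.09, against 0.02 for all tested genes. The direction of this split depended on the scaling. With library totals 38 members were higher and 25 lower, and the median of all genes shifted from 0.02 to 0.18. A change of 2-fold or more was called for RPS4X (higher) and for RPL22L1 and RPL35 (lower), where all genes had 16% higher and 12.2% lower.

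**Figure D3:**
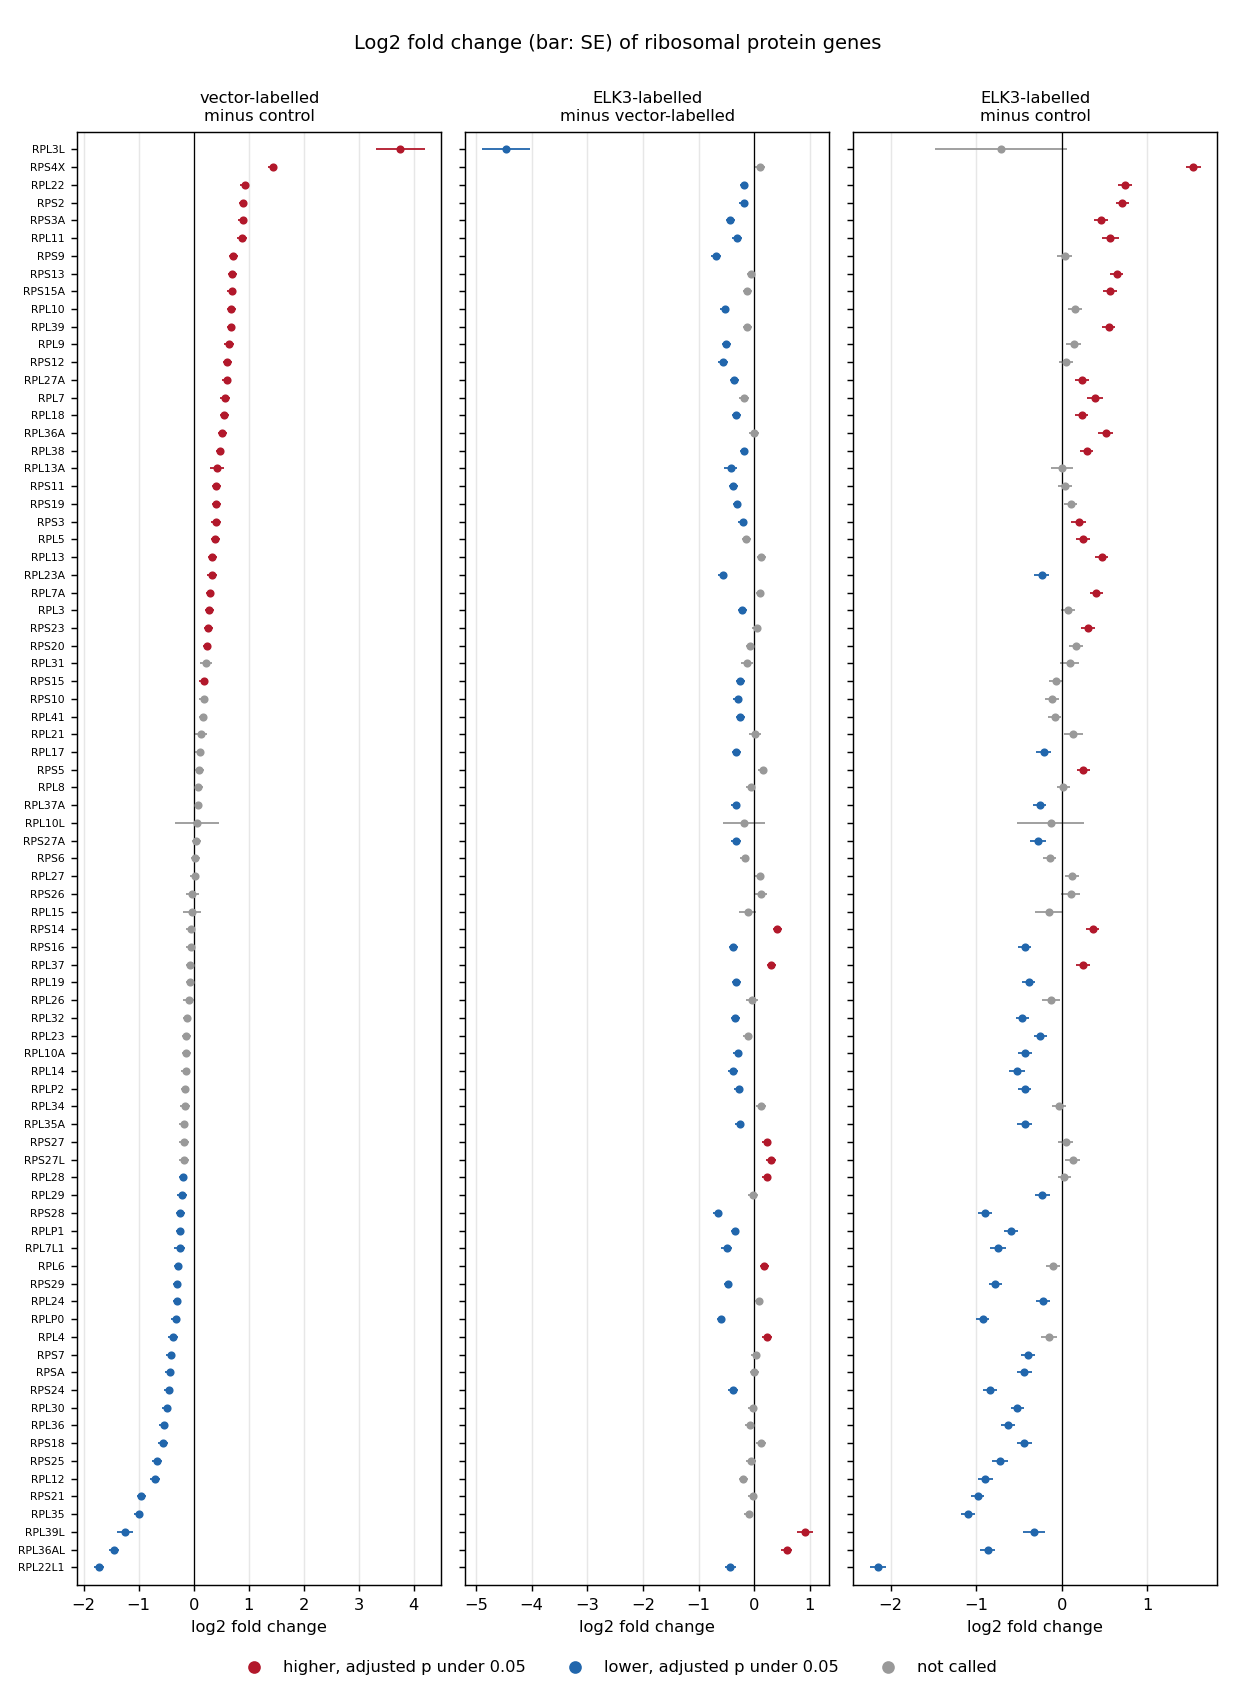
Log2 fold change (x axis) of the ribosomal protein genes reported here (y axis, ordered by the first panel) in the 3 comparisons, with the SE from the fit as bars and colour by call at adjusted p under 0.05. The first panel has called genes on both sides of 0, and the middle panel leans to the lower side (medians of all 84 members 0.04 and -0.18).

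The P stalk is the flexible arm that recruits translation factors, made of RPLP0, the anchor, and dimers of RPLP1 and RPLP2. RPLP0 (chr12:120196686-120201235, minus strand) stood at 2424 and 2386 CPM in the controls, 1883 and 1950 in vector-labelled and 1243 and 1295 in the ELK3-labelled libraries. RPLP1 stood at 2720 and 2538 (control), 2141 and 2290 (vector-labelled) and 1714 and 1774 CPM (ELK3-labelled). RPLP2 stood at 1048 and 1003 (control), 902 and 936 (vector-labelled) and 727 and 789 CPM (ELK3-labelled). For all 3 genes no groups overlapped, with the controls highest and the ELK3-labelled libraries lowest.

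Against the controls the ELK3-labelled libraries had log2 fold changes of -0.92 ± 0.08 for RPLP0, -0.59 ± 0.08 for RPLP1 and -0.43 ± 0.08 for RPLP2 (adjusted p = 2.01e-12, 5.38e-08 and 1.39e-05). Against the vector-labelled libraries the log2 fold changes were -0.59, -0.34 and -0.28 (adjusted p = 4.63e-08, 0.000288 and 0.00304). Leaving out vector-labelled replicate 2 or ELK3-labelled replicate 1 ended the RPLP2 call there (adjusted p = 0.0536 and 0.0861). Between vector-labelled and control libraries RPLP0 (adjusted p = 0.000289) and RPLP1 (0.00526) fell and RPLP2 missed the threshold (0.071). The RPLP1 call was lost with library totals (adjusted p = 0.17), with the 10 CPM filter (0.0819) and without vector-labelled replicate 1 (0.0816).

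Several like copies shifted against their partners between groups. RPL22L1 is a copy of RPL22, a large subunit protein. RPL22L1 (chr3:170864875-170870483, minus strand) stood at 220 and 214 CPM in the controls, 63.2 and 68.8 in vector-labelled and 49.8 and 48.1 in the ELK3-labelled libraries. RPL22 (chr1:6185020-6209389, minus strand) went the other way, with 551 and 587 (control), 1107 and 1050 (vector-labelled) and 907 and 992 CPM (ELK3-labelled). The controls were highest for RPL22L1 and lowest for RPL22.

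RPL22L1 fell 3.28-fold in the vector-labelled libraries (log2 fold change -1.72 ± 0.09, adjusted p = 2.29e-17) and RPL22 rose 1.9-fold (adjusted p = 3.92e-12). In counts of the same library, which no scaling touches, RPL22L1 came to 39.9% and 36.4% of RPL22 in the controls, 5.71% and 6.55% in vector-labelled and 5.49% and 4.84% in the ELK3-labelled libraries. The kit counts transcripts near their 3′ ends and the values are not per length, so such a percentage is read between libraries and not as a ratio of molecules.

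RPL36AL (chr14:49618519-49620685, minus strand) is an autosomal copy of the X-linked RPL36A, a protein of the site where used tRNAs leave. RPL36AL stood at 289 and 349 CPM in the controls, 124 and 109 in vector-labelled and 173 and 177 in the ELK3-labelled libraries, with no overlap between groups. It fell 2.74-fold in the vector-labelled libraries (adjusted p = 2.59e-15) and rose 1.5-fold from there to the ELK3-labelled libraries (adjusted p = 3.01e-06). RPL36A stood at 343 and 338 (control), 480 and 498 (vector-labelled) and 444 and 529 CPM (ELK3-labelled), lowest in the controls. RPL36AL came to 84.2% and 103% of the counts of RPL36A in the controls, 25.7% and 21.9% in vector-labelled and 39.0% and 33.4% in the ELK3-labelled libraries.

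RPL39L is a copy of RPL39, which lines the exit tunnel, and is best known from the testis. RPL39L stood at 44.1 and 42.6 CPM in the controls, 18.9 and 17.6 in vector-labelled and 36.1 and 33.3 in the ELK3-labelled libraries. The vector-labelled libraries were lowest, with a fall of 2.37-fold from the controls (adjusted p = 2.83e-09) and a rise of 1.9-fold to the ELK3-labelled libraries (adjusted p = 1.25e-06). Its partner RPL39 stood at 753 and 748 (control), 1209 and 1189 (vector-labelled) and 1118 and 1081 CPM (ELK3-labelled). RPL39L came to 5.86% and 5.69% of the counts of RPL39 in the controls, 1.57% and 1.48% in vector-labelled and 3.23% and 3.08% in the ELK3-labelled libraries.

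RPL3L, the copy of RPL3 known from striated muscle, had only a few counts outside the vector-labelled libraries, 7 and 1 in control and 4 and 4 in ELK3-labelled ones, against 72 and 65 in the vector-labelled. It was called higher in vector-labelled than in control libraries (log2 fold change 3.75 ± 0.45, adjusted p = 3.89e-09). RPL3L (chr16:1943974-1957606, minus strand) lies beside RPS2 (chr16:1962052-1964860, minus strand), which was also highest in the vector-labelled libraries. RPL10L, the testis copy of RPL10, had 2.39 to 3.56 CPM over the 6 libraries and was called in no comparison (adjusted p = 0.907, 0.69 and 0.79).

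The remaining pairs differed from one another. RPS27L, a copy of RPS27 known as a p53 target, came to 73.7% and 71.6% of the counts of RPS27 in the controls, 69.6% and 76.1% in vector-labelled and 77.5% and 76.5% in the ELK3-labelled libraries. The vector-labelled libraries spanned the controls, so this balance did not differ beyond the spread between replicates there. RPL7L1, a relative of RPL7 that works in ribosome assembly, came to 145% and 133% of the counts of RPL7, 69.6% and 88.5% and 54.1% and 71.6%. The controls were highest and the plasmid groups overlapped. RPL7L1 itself stood at 155 and 157 CPM in the controls and 83.2 and 102 in the ELK3-labelled libraries, a fall of 1.69-fold (adjusted p = 5.03e-08).

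**Figure D4:**
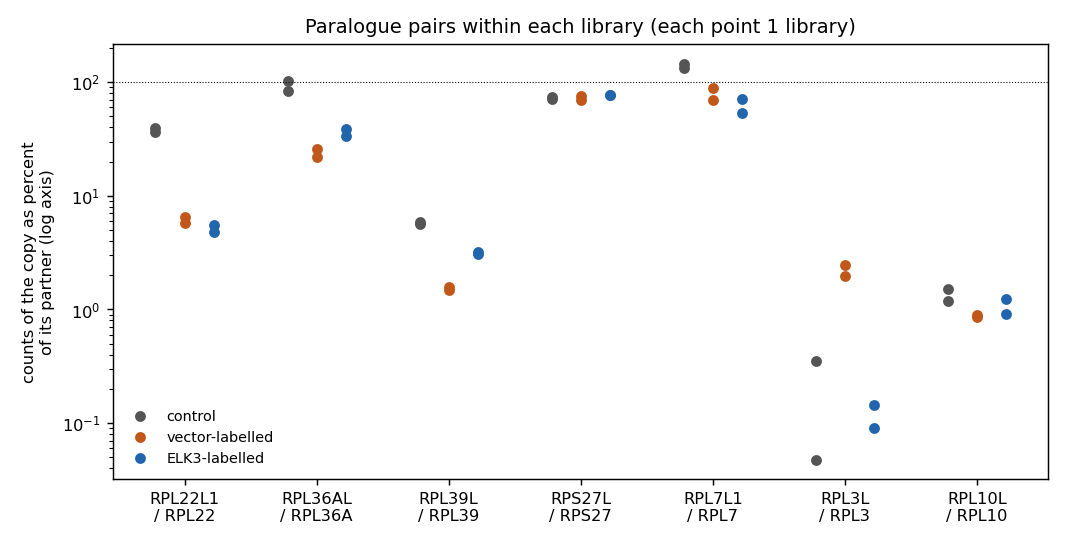
Counts of a like copy as percent of the counts of its partner in the same library (y axis, log scale) for 7 pairs, each point 1 library, coloured by group, with a dotted line at equal counts. RPL22L1 falls from 39.9% and 36.4% in the controls to 5.71% and 6.55% in the vector-labelled libraries, while RPS27L keeps to 69.6% to 77.5% in all 6. The RPL3L points of the control and ELK3-labelled libraries rest on 1 to 7 counts.

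RPL5 and RPL11 join the 5S ribosomal RNA before they enter the ribosome, and the free particle binds MDM2. RPL11 stood at 550 and 726 CPM in the controls, 1253 and 1092 in vector-labelled and 931 and 962 in the ELK3-labelled libraries, and RPL5 at 1997 and 2325 (control), 2997 and 2679 (vector-labelled) and 2442 and 2699 CPM (ELK3-labelled). The controls were lowest for both genes, and for RPL5 the plasmid groups overlapped. In the vector-labelled libraries RPL11 rose 1.84-fold (adjusted p = 4.65e-09) and RPL5 1.31-fold (adjusted p = 0.000109).

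RPS6, the substrate of the S6 kinases, was called in no comparison. Its levels were 1807 and 1904 CPM in the controls, 1890 and 1904 in vector-labelled and 1621 and 1746 in the ELK3-labelled libraries (adjusted p = 0.727, 0.0558 and 0.116). RPSA, the laminin receptor, stood at 290 and 334 CPM in the controls, 235 and 225 in vector-labelled and 225 and 236 in the ELK3-labelled libraries. It fell in both plasmid groups, with log2 fold changes of -0.44 ± 0.09 and -0.44 ± 0.09 (adjusted p = 3.66e-05 and 4.62e-05), and the plasmid groups overlapped.

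Of 8 genes in which loss of a copy causes Diamond-Blackfan anaemia, 3 were higher and 2 lower in vector-labelled than in control libraries. In ELK3-labelled than in control libraries 2 were higher and 3 lower. All tested genes stood at 37% higher and 35.3% lower in the first of these comparisons, and at 31.8% and 30.8% in the second. The call of RPL5, higher in the second, was lost without control replicate 1 (log2 fold change 0.14) and without ELK3-labelled replicate 2 (0.17). Between the plasmid groups 0 were higher, also at an unadjusted p under 0.05 in edgeR and with DESeq2. There 5 were lower (RPS19, RPS24, RPS10, RPL35A and RPL11, median of the 8 genes -0.28), beside 47.62% of all members and 29.6% of all tested genes. The RPL11 call was lost with DESeq2 (adjusted p = 0.195), without vector-labelled replicate 1 (log2 fold change -0.198) and without ELK3-labelled replicate 1 (-0.277). RPS19, the gene most often affected, stood at 2022 and 2139 CPM in the controls, 2749 and 2789 in vector-labelled and 2217 and 2253 in the ELK3-labelled libraries, highest in the vector-labelled libraries (adjusted p = 1.4e-05 against controls). RPS24 stood at 3866 and 4216 (control), 3040 and 2861 (vector-labelled) and 2096 and 2433 CPM (ELK3-labelled), highest in the controls and lowest in the ELK3-labelled libraries (adjusted p = 1.13e-10 against controls). RPS7 stood at 679 and 761 CPM in the controls and fell in both plasmid groups, to 554 and 523 and 533 and 566 CPM (adjusted p = 3.05e-05 and 9.99e-05). RPS26 was called in no comparison, and for RPS10 and RPL35A the ELK3-labelled libraries were lower than the vector-labelled (adjusted p = 0.00251 and 0.00752). These last calls were lost without ELK3-labelled replicate 1 (adjusted p = 0.0895 and 0.134), that of RPS10 also without vector-labelled replicate 2 (0.0831) and that of RPL35A without vector-labelled replicate 1 (0.184).

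The order of the groups across all members was not even. Both vector-labelled libraries stood above the other 4 for 29 members (34.52%, background 28%) and below them for 9 (10.71%, background 26.2%). Both ELK3-labelled libraries stood above for 9 (10.71%, background 18%) and below for 26 (30.95%, background 15.7%). Both control libraries stood above for 28 (33.33%, background 29.1%) and below for 25 (29.76%, background 30.5%). The members called in no comparison were 10, namely RPL10L, RPL15, RPL21, RPL26, RPL27, RPL31, RPL34, RPL8, RPS26 and RPS6. No share over all tested genes stands beside this count, so it only lists the members. No called member had overlapping libraries in the comparison where it was called. A call rests on the spread between these same libraries, so this adds no support to the calls. RPL8 (adjusted p = 0.358) and RPL21 (0.336) did not overlap between vector-labelled and control libraries either, and were not called.

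Position on the chromosomes was looked at after the values had been seen. All 4 members on the X chromosome (RPS4X, RPL10, RPL39 and RPL36A) were higher in vector-labelled than in control libraries, where 48.3% of tested X-linked genes were. On chromosome 16 all 4 members were higher (RPS2, RPL3L, RPS15A and RPL13), beside 45.6%. On chromosome 3 none of 9 members was higher and 5 were lower (RPL22L1, RPL39L, RPSA, RPL24 and RPL29), beside 28.5% and 44% of its genes. The count of 0 higher was also found at an unadjusted p under 0.05 in edgeR and with DESeq2. The RPL29 call was lost with library totals (adjusted p = 0.469), with the 10 CPM filter (0.281), and when control replicate 1 (0.0711), vector-labelled replicate 1 (0.152) or vector-labelled replicate 2 (0.0505) was left out. Between ELK3-labelled and control libraries 8 of these 9 were lower, RPL15 being the exception, beside 45.3% of chromosome 3 genes, and with library totals RPL24 (adjusted p = 0.495), RPL29 (0.53) and RPL39L (0.272) lost that call. DESeq2 also ended those of RPL29 (0.0562) and RPL39L (0.181), and the 10 CPM filter that of RPL29 (0.0564). Single libraries left out ended the call of RPL24 (ELK3-labelled replicate 1, 0.165), of RPL29 (control replicate 1, 0.0675, or ELK3-labelled replicate 2, 0.464) and of RPL39L (either control, 0.11 and 0.0509, or ELK3-labelled replicate 2, 0.179). Copy number was not measured.

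Many members have processed pseudogenes, and how reads that fit several places were counted is not given in the sources used here. The 31 symbols of ribosomal protein pseudogenes in the files held counts equal to 1.86% to 2.01% of the members' counts in every library. Of the 39 members outside the like copies with 10 or more named pseudogenes in GENCODE 29, 9 had a mean under 300 CPM. Of the 38 with fewer, 1 did. The medians of the 2 sets were 1016 and 1245 CPM, and over the 77 members, all from the same libraries, Spearman's rho between level and number of pseudogenes was -0.15. RPL21, with 66 named pseudogenes, stood at 49.8 to 58.0 CPM, and RPS26, with 30, at 54.4 to 67.0 CPM. The levels of such members are uncertain, and the part of multiple mapping in their changes was not tested.

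The genes that build ribosomes had medians further from 0 than the ribosomal protein genes. The counts for these lists stand beside 37% higher and 35.3% lower of all tested genes between vector-labelled and control libraries, 30% and 29.6% between the plasmid groups, and 31.8% and 30.8% between ELK3-labelled and control libraries. Of 52 tested assembly factors, 7 were higher and 35 lower in vector-labelled than in control libraries, with a median log2 fold change of -0.84, and 32 were higher and 11 lower in ELK3-labelled than in vector-labelled libraries, with a median of 0.60. Between ELK3-labelled and control libraries 8 were higher and 27 lower (median -0.29), and 5 were higher without control replicate 1 or without ELK3-labelled replicate 2. EIF6, which keeps the large subunit from joining too early, stood at 338 and 335 CPM in the controls, 68.9 and 67.8 in vector-labelled and 164 and 172 in the ELK3-labelled libraries. It fell 4.93-fold (adjusted p = 3.16e-21) and rose 2.46-fold between the plasmid groups (adjusted p = 5.59e-14). DDX21, a nucleolar helicase, stood at 1390 and 1449 (control), 370 and 342 (vector-labelled) and 785 and 847 CPM (ELK3-labelled). In both genes the vector-labelled libraries were lowest and the ELK3-labelled libraries in between. TCOF1, a nucleolar factor of ribosomal RNA synthesis, fell from 267 to 101 CPM and stood at 270 in the ELK3-labelled libraries.

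The RNA polymerase I list, which covers the enzyme and factors that transcribe ribosomal RNA genes, had 2 of 15 genes higher and 11 lower in vector-labelled than in control libraries (median -0.97), and 8 higher and 3 lower between the plasmid groups (median 0.49). Without vector-labelled replicate 1 the number lower between the plasmid groups was 1. TAF1B, of the selectivity factor, stood at 59.6 and 55.3 CPM in the controls, 5.73 and 6.60 in vector-labelled and 25.6 and 27.1 in the ELK3-labelled libraries (adjusted p = 1.13e-17 and 8.14e-12 for the 2 steps). UBTF, which binds ribosomal RNA genes, fell from 79.1 to 39.4 CPM and stood at 101 in the ELK3-labelled libraries.

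The medians of the snoRNA host genes had the opposite sign to those of the assembly and RNA polymerase I lists in 2 of the 3 comparisons, and the same sign between ELK3-labelled and control libraries. These are genes whose introns give rise to the small RNAs that guide modification of ribosomal RNA, and their spliced transcripts often begin with a TOP motif. Of 12, 9 were higher and 1 lower in vector-labelled than in control libraries (median 0.82). In ELK3-labelled libraries none was higher and 10 were lower than in the vector-labelled (median -1.13), where all genes had 30% and 29.6%. The count of 0 higher held for edgeR also at an unadjusted p under 0.05, and for DESeq2. Between ELK3-labelled and control libraries 4 were higher and 7 lower (median -0.22), and 2 were higher without control replicate 1 or without ELK3-labelled replicate 1. The 1 gene lower in the vector-labelled libraries lost its call without control replicate 2 or vector-labelled replicate 2. SNHG1 stood at 305 and 307 CPM in the controls, 985 and 991 in vector-labelled and 228 and 233 in the ELK3-labelled libraries, a rise of 3.23-fold and a fall of 4.28-fold. SNHG12 stood at 37.4 and 46.7 (control), 229 and 190 (vector-labelled) and 46.0 and 48.8 CPM (ELK3-labelled), with the controls and ELK3-labelled libraries overlapping.

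Other lists had calls in both directions, beside the same 37% and 35.3% of all genes against controls and 30% and 29.6% between the plasmid groups. Of 16 elongation factors and other TOP messages, 5 were higher and 9 lower in vector-labelled than in control libraries, and 5 and 2 between the plasmid groups. Without ELK3-labelled replicate 2 the latter were 2 and 1, and leaving out replicate 1 of either plasmid group left 1 lower. EEF1B2 fell from 447 to 186 CPM (adjusted p = 1.51e-14) while EEF1G, of the same exchange complex, rose from 662 to 1352 CPM (adjusted p = 1.26e-13). Of 4 ribosome components with other names, FAU, a fusion of a ubiquitin-like protein and a small subunit protein, rose in the vector-labelled libraries (1899 and 1887 CPM in controls, 2339 and 2558 there, adjusted p = 7.39e-05), and FAU and RPL26L1 were lower in ELK3-labelled than in vector-labelled libraries. The RPL26L1 call was lost with DESeq2 (adjusted p = 0.141), without vector-labelled replicate 1 (0.152) and without ELK3-labelled replicate 2 (0.248).

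Of 19 genes of mTORC1, LARP1 and MYC control, 8 were higher and 7 lower in vector-labelled than in control libraries and 5 and 7 between the plasmid groups. These shares were near those of all tested genes, at 37% and 35.3% and at 30% and 29.6%. LARP1, which binds the TOP motif, fell from 521 to 335 CPM (adjusted p = 1.88e-08) and stood at 503 in the ELK3-labelled libraries. DEPTOR, an inhibitor of mTOR, stood at 1.88 and 2.80 CPM in the controls, 22.3 and 21.8 in vector-labelled and 2.54 and 2.66 in the ELK3-labelled libraries. MYC, which drives ribosome genes in many cells, stood at 59.1 ± 2.51 CPM in the controls, 9.28 ± 2.66 in vector-labelled and 14.6 ± 3.65 in the ELK3-labelled libraries (SD, n = 2), highest in the controls (adjusted p = 7.02e-15 and 4.57e-13 against them). Of 12 genes that watch over stalled ribosomes and free subunits, 4 were higher and 7 lower in vector-labelled than in control libraries and 5 and 4 between the plasmid groups, beside the same backgrounds.

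**Figure D5:**
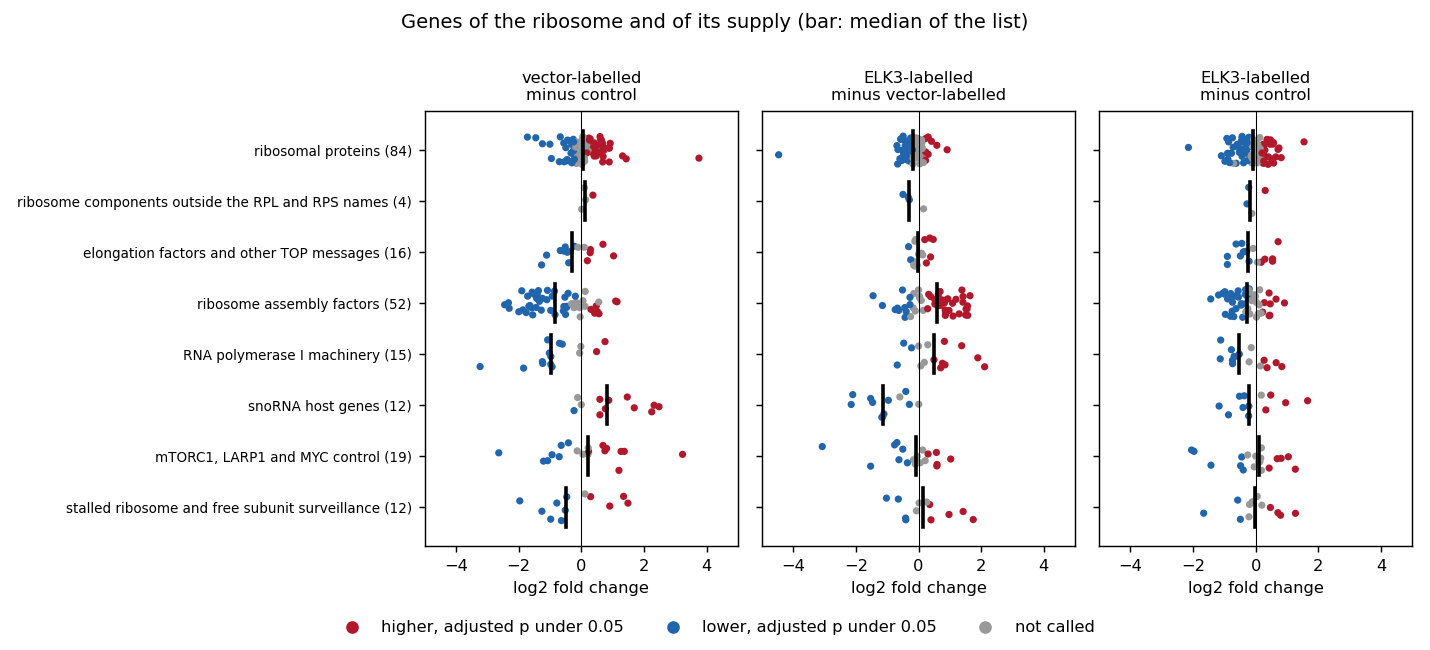
Log2 fold change (x axis) of each tested gene in the ribosomal protein set and in 7 lists of related genes (y axis, number tested in brackets), in the 3 comparisons, coloured by call at adjusted p under 0.05, with the median of each list as a black bar. In the first panel the ribosomal proteins centre on 0.04 while assembly factors centre on -0.84 and snoRNA hosts on 0.82.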

How the data were processed

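Raw counts of reads per gene symbol were deposited by the authors for each library. Per the submitters' processing notes, Bowtie2, edgeR and hg19 were used, with no versions. Per the labels' protocols, libraries were made from total RNA with a Lexogen Quant-Seq kit, which reads transcript ends. The counter, annotation, use of strand and handling of multiple mapping are not given in the sources used here. Lines that share a symbol were summed (25737 lines, 24462 symbols). Among members this touched RPS18, on 6 lines, 5 of them at 0.

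In R 4.3.3 with edgeR 4.0.16, genes passing filterByExpr were kept (15386), TMM factors set the library sizes, and 1 robust quasi-likelihood fit over all 6 libraries had a mean for each group (3 residual degrees of freedom, common coefficient of variation 0.0645). Tests were two-sided with Benjamini-Hochberg adjustment over all genes and a threshold of 0.05. The script was tested on simulated data. Within a group, the chi-square of members' counts over its degrees of freedom was 19.6 to 33.2, against 2.21 to 3.02 over all genes. Spread between libraries and not counting error thus limits the precision. This ratio grows with the count, and members are abundant. The members' median absolute log2 difference between replicates was 0.114 (control), 0.0741 (vector-labelled) and 0.0797 (ELK3-labelled). Over all tested genes it was 0.180, 0.157 and 0.142, and over genes of 100 CPM or more 0.105, 0.0854 and 0.0808. The alternatives, of which DESeq2 1.42.0 is one, are under the closing section. Tables and plots were made in Python 3.11.15 (pandas 2.3.3, matplotlib 3.10.9).

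The members and the gene lists were chosen with earlier results of these data known. The naming rule took, per comparison, the 6 highest and 6 lowest called members, those called in all 3, the paralogue pairs, stalk, RPSA, RPL5, RPL11, RPS6, Diamond-Blackfan genes, the extremes of mean level and up to 4 genes per list by smallest p. RPL6, RPL8, RPL13, RPL24, RPL26, RPL27, RPL28, RPL29, RPL31, RPL34 and RPS15A fall outside it and were named after their values were seen. Sequences and starts are RefSeq's on GRCh38.p14 and gene positions GENCODE 29's on GRCh38. Both serve as labels only, since the counts rest on hg19. Protein sequences were not used here, and a few genes that the rule would name are not reported here.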

Additional observations from a re-analysis of the deposited data

How the results depend on the processing

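Direction and call held well for the large changes and less well for the small ones. Of the members called, 44 of 56 (vector-labelled versus control), 30 of 49 (ELK3-labelled versus vector-labelled) and 40 of 56 (ELK3-labelled versus control) kept their call under every alternative, and none changed direction while called. Leaving out single libraries ended 11, 19 and 15 of these calls. Scaling and filter moved the members' median log2 fold change. Between vector-labelled and control libraries it was 0.04, and 0.18 with library totals, -0.0116 with no filter, 0.13 with the 10 CPM filter and -0.0019 to 0.057 with a library left out. Between the plasmid groups it was -0.18, and -0.12 with no filter, -0.25 with the 10 CPM filter and -0.217 to -0.138 with a library left out. Against controls, the ELK3-labelled libraries had -0.09, 0.0691 with library totals and -0.109 to -0.0039 with a library left out, the last without ELK3-labelled replicate 1. Members higher between the plasmid groups were 9, and 5 with the 10 CPM filter, 5 without vector-labelled replicate 2 or without ELK3-labelled replicate 2, and 5 to 10 over all libraries left out. Members higher against controls in the ELK3-labelled libraries were 22, and 38 with library totals, and 16 to 22 with a library left out. The vector-labelled share of counts was 11.34%, and 11.38% without symbols that stand on several lines. The cause of these shifts was not tested. DESeq2, its size factors, TMM factors computed without the members, and a fit on only the 4 libraries compared kept every count of members within 1.5 times.

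Replicate numbers are not said to pair libraries. Deviations from the group means correlated at -0.114 (control and vector-labelled), 0.0563 (control and ELK3-labelled) and -0.0031 (plasmid groups). With the replicate number as a block the calls were 32 higher and 24 lower, 8 and 36, and 21 and 34 in the 3 comparisons, against 32 and 24, 9 and 40, and 22 and 34 without it, and with the numbers crossed between control and vector-labelled libraries, chosen after seeing the data, 35 and 33. Counts in small lists moved most. For the elongation factor list the number lower between the plasmid groups ran from 1 to 4 over the alternatives, against 2, and the snoRNA host gene called lower in vector-labelled libraries was lost under several.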
